A study of Mus musculus with 10 samples.

Results

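The nuclear genes of respiratory complex I were measured in the hippocampus of mice that carry the kinase gene Dyrk1a in excess. Every gene whose single array symbol starts with Nduf was taken, which gave 43 of the 19938 genes with a single-symbol entry on the array. Of these, 36 carry subunit symbols and are called subunits here, among them Ndufa4, since assigned to complex IV, and its paralogue Ndufa4l2. The other 7, Ndufaf1 to Ndufaf7, encode assembly factors, which help to build the complex and are not part of it once finished. Each gene was read from 1 transcript cluster, the group of probes that the array summarises as a transcript, and where a gene had several the one with the highest mean over the 10 arrays was used. The choice did not use genotype.

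Total RNA came from the whole hippocampus, both sides together, of 5 male Tg(Dyrk1a) mice and 5 male wild-type littermates, all 16 weeks old, with 1 mouse per array. The Tg(Dyrk1a) line is transgenic for a bacterial artificial chromosome that holds the mouse Dyrk1a gene, so it tests an excess of that gene alone and not of the other genes of the Down syndrome region. The labels place both groups on C57BL/6N, whereas the study's methods describe breeding towards C57BL/6J. The question was which hippocampal transcripts differ when Dyrk1a is in excess.

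Complex I, NADH:ubiquinone oxidoreductase, is the entry point of electrons from NADH into the respiratory chain of mitochondria. Its peripheral arm reaches into the matrix and holds the N module, which oxidises NADH, and the Q module, which passes the electrons to ubiquinone. Its membrane arm, divided here into a proximal and a distal part, pumps protons. Neurons depend on this chain for most of their ATP, and the mitochondrial genome encodes a few core subunits of the membrane arm while the nucleus encodes the rest.

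Array medians lay between 6.57 and 6.66 (log2) and any 2 arrays correlated at r = 0.997 to 0.999. Dyrk1a itself (transcript cluster 10437136) was 1.38-fold higher in Tg(Dyrk1a) mice, with no overlap between genotypes (limma adjusted p = 0.000138). A dimmer Dyrk1a transcript cluster, 10437134, was 1.11-fold higher, also with no overlap (limma adjusted p = 0.947). All 16 markers of hippocampal neurons had a transcript cluster on the array, which does not by itself show expression. Their wild-type means ran from 5.92 to 13.2 (log2), beside a median level of 7.30 over all genes. Choroid plexus markers stood apart in 3 arrays, with list scores of 1.04 in Tg(Dyrk1a) mouse 2, 0.72 in Tg(Dyrk1a) mouse 4 and 1.01 in wild-type mouse 5, against 0.01 or less in the other arrays. A list score is the mean over a list's genes of the log2 value in a mouse minus that gene's mean over the 10 mice. The list medians were therefore also taken without these 3 arrays.

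No complex I gene passed the test across the array. Of the 43 genes, 0 reached a limma adjusted p of 0.05, where 2 of 23410 annotated transcript clusters did (0.00854%), and the smallest adjusted p of any Nduf gene was 0.947. Before adjustment, 2 genes had a limma p under 0.05, the subunit Ndufa2 and the assembly factor Ndufaf3. Both were higher in Tg(Dyrk1a), and they make up 4.65% of the Nduf genes against 4.93% of all transcript clusters, 2.99% higher and 1.94% lower. By FCROS, the rank method of the study, 0 of the 43 genes were called, where 4.83% of all transcript clusters were, 2.72% as higher and 2.11% as lower. Ndufa2 was the single gene whose genotypes did not overlap, which 0.807% of transcript clusters showed. These counts lie near the background of the array.

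The differences were small in all 43 genes. In 42 of them the log2 fold change was under 0.1 in size, in 28 its standard error was at least as large as the change, and in 41 the 95% interval included 0. The intervals reached from -0.20 for Ndufaf2 to 0.27 for Ndufs6 on the log2 scale, or from 0.868-fold to 1.21-fold of wild type. Each interval holds at 95% for its own gene, and the 43 together have no joint coverage of 95%. RMA values compress fold changes, and these bounds hold for the compressed scale. The within-group SD was 0.06 in the median subunit, 0.07 in the median assembly factor and 0.07 in the median gene.

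**Figure D1:**
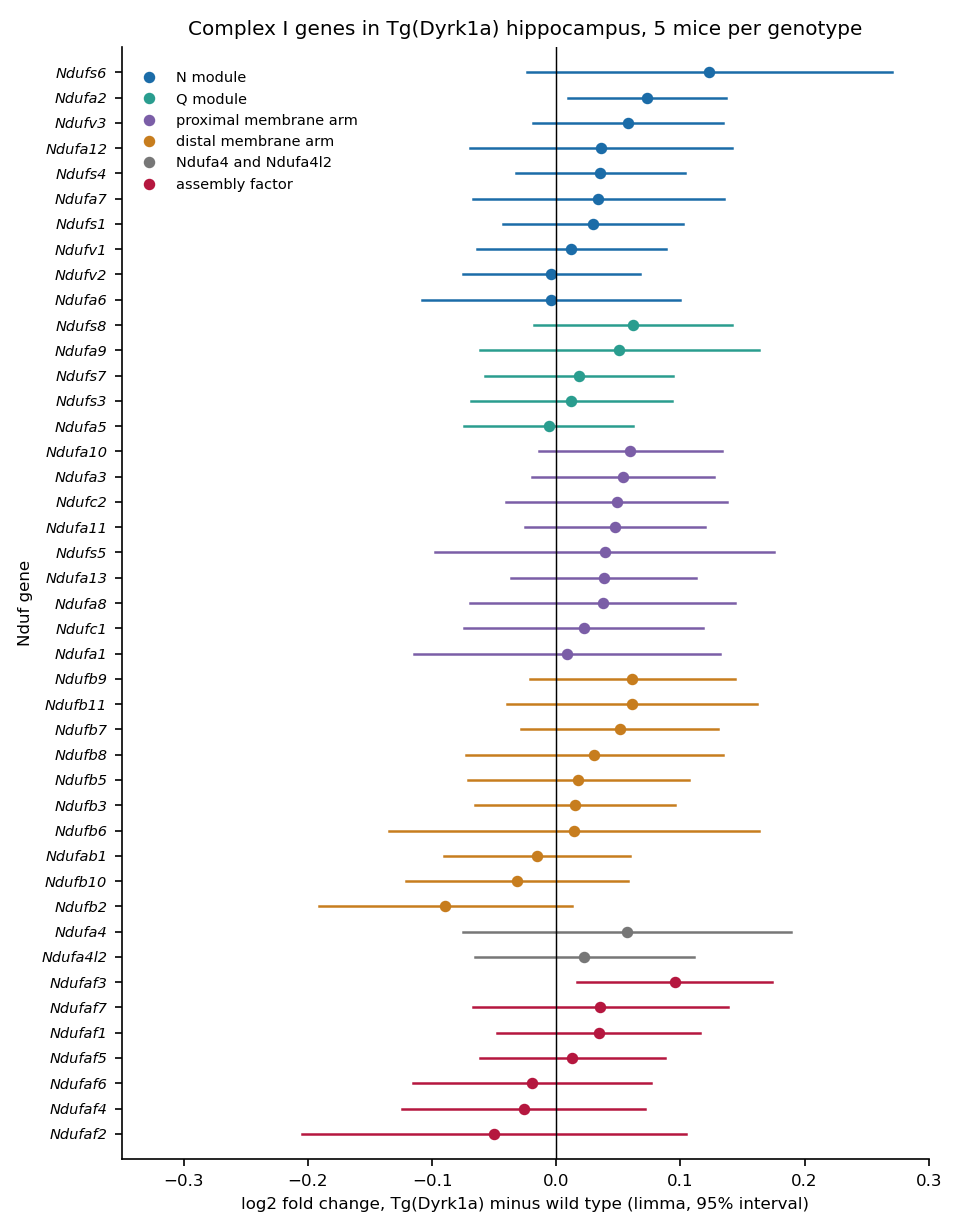
Log2 fold change of Tg(Dyrk1a) over wild type (horizontal axis) for the 43 Nduf genes (vertical axis), ordered within each role, with points for the limma estimate and lines for the 95% interval, 5 mice per genotype. Most points lie right of 0, between 0 and 0.1, and the intervals of Ndufa2 and Ndufaf3 alone leave out 0.

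Small differences in 1 direction were common among the subunits. Of the 36 subunits 30 had a higher mean in Tg(Dyrk1a) and 6 a lower one, with a median log2 fold change of 0.035, while 51.7% of all genes were higher, with a median of 0.0020. Of the 7 assembly factors 4 were higher and 3 lower, with a median of 0.013. The difference between the 2 medians was 0.022. The 12 measured assembly factors without an Ndufaf symbol had a median of 0.046, above that of the subunits. Of 21 alternative treatments of the data, 17 moved the subunit median and 4 could not. It stayed above 0 in those 17, from 0.019 to 0.047, whereas the median of the assembly factors was below 0 in 3 treatments, the one with array weights, the one with marker scores as covariates and the one without wild-type mouse 2.

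Transcript clusters with strong signal were more often higher in Tg(Dyrk1a) throughout the array, and most subunits are among them. Among all genes with a mean log2 value under 7 only 37.9% were higher in Tg(Dyrk1a), and no subunit lay in this range. From 8 to 9 the share of all genes was 65.1%, from 9 to 10 it was also 65.1%, from 10 to 11 it was 66.7% and from 11 upwards it was 67.6%. The subunits that were higher numbered 3 of 3 from 7 to 8, 4 of 7 from 8 to 9, 8 of 10 from 9 to 10, 9 of 9 from 10 to 11 and 6 of 7 from 11 upwards. The median of all genes at or above 8 ran from 0.012 to 0.020 over these ranges, against 0.033 to 0.051 for the subunits. The median level was 9.90 in the subunits and 7.51 in the assembly factors. Of the assembly factors 1 lay under 7 and 3 from 7 to 8, where 57.0% of all genes were higher. The part of signal level in the difference between subunits and assembly factors was not tested. Genes are not replicates, so no test was made of these shares.

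**Figure D2:**
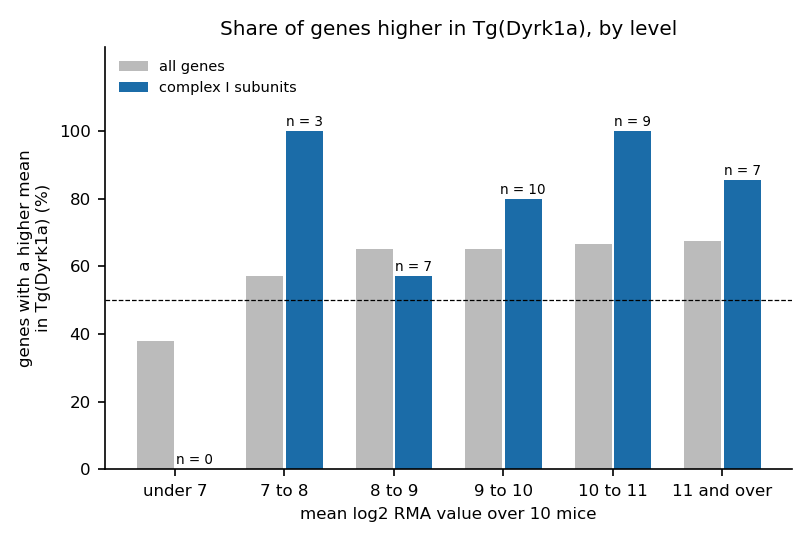
Percent of genes with a higher mean in Tg(Dyrk1a) than in wild type (vertical axis) by the mean log2 RMA value over the 10 mice (horizontal axis). Grey bars are all genes and blue bars the genes with complex I subunit symbols, Ndufa4 and Ndufa4l2 included. The number of subunits stands above each bar, and a dashed line lies at 50%. The grey bars pass from 37.9% under 7 to 67.6% at 11 and over, and the subunits lie above them in every range they occupy except 8 to 9.

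Most genes of 2 other mitochondrial lists were also higher in Tg(Dyrk1a). Of 37 measured genes of complexes II to V, 31 were higher, with a median of 0.018, and Sdhd, the membrane anchor of succinate dehydrogenase, stood highest at 0.07 while Uqcrc1, a core protein of complex III, stood lowest at -0.04. Of 77 genes for mitochondrial ribosomal proteins 64 were higher, with a median of 0.038. The complex I subunits therefore lie between these lists in their median and were not tested against them. At an unadjusted limma p under 0.05, 7 of the 77, 0 of the 37 and 1 of the 36 subunits were higher. None was lower, and 2.99% of all transcript clusters were higher. FCROS called 5 of the 77 as higher and 0 in the other 2 lists, where it called 2.72% of all transcript clusters.

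By mouse, the subunit values of the genotypes overlapped. The subunit score was 0.07, 0.02, -0.002, -0.03 and 0.01 in Tg(Dyrk1a) mice 1 to 5, and -0.05, -0.003, -0.04, 0.01 and 0.01 in wild-type mice 1 to 5. Tg(Dyrk1a) mouse 1 was above all others, wild-type mice 1 and 3 were the lowest, and the remaining Tg(Dyrk1a) mice lay among the wild-type mice or, for mouse 2, just above them. The group means differed by 0.03 with a pooled SD of 0.033.

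The score of the 7 assembly factors followed a like order. It was 0.04, 0.03, -0.01, -0.05 and 0.02 in Tg(Dyrk1a) mice 1 to 5 and -0.03, 0.02, -0.04, 0.01 and 0.002 in wild-type mice 1 to 5. Tg(Dyrk1a) mouse 1 was again the highest, and Tg(Dyrk1a) mouse 4 was the lowest of all 10. The difference of the group means was 0.01 with a pooled SD of 0.032. The subunit score less the assembly factor score was 0.009 ± 0.018 (SD, n = 5) in Tg(Dyrk1a) and -0.009 ± 0.013 (SD, n = 5) in wild-type mice, with overlapping groups.

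**Figure D3:**
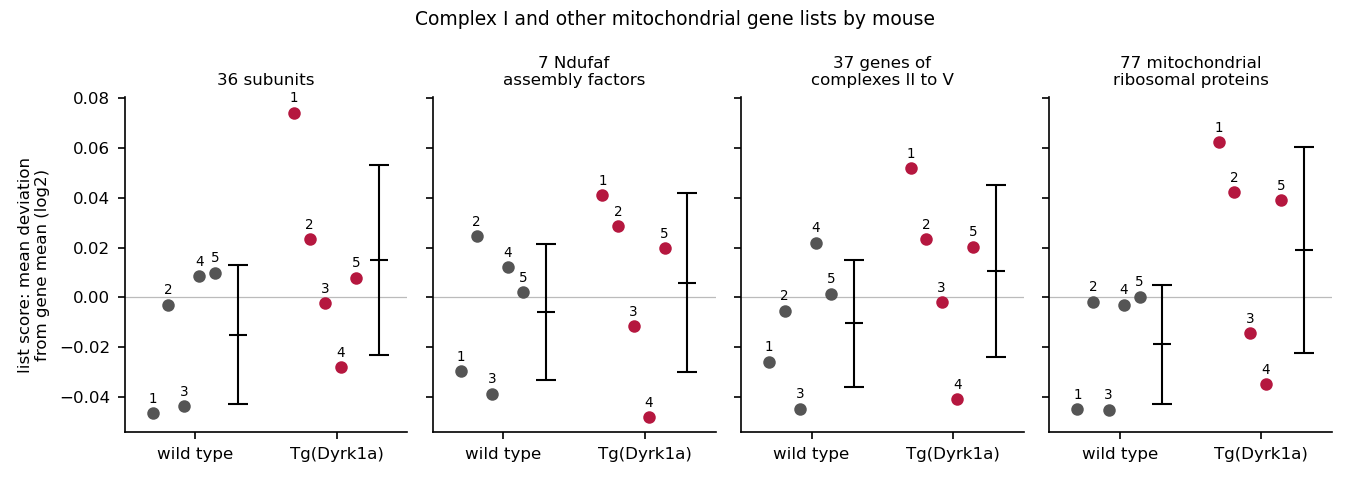
List scores (vertical axis, mean deviation from the gene mean over 10 mice, log2) of the 36 subunits, 7 Ndufaf assembly factors, 37 genes of complexes II to V and 77 mitochondrial ribosomal protein genes, each mouse a numbered point and bars giving mean and SD by genotype (n = 5). Tg(Dyrk1a) mouse 1 is the highest and Tg(Dyrk1a) mouse 4 the lowest Tg(Dyrk1a) mouse in all 4 panels, and the genotypes overlap in each.

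Single mice carried much of this pattern. Tg(Dyrk1a) mouse 1 held the highest Tg(Dyrk1a) value in 18 of 36 subunits, where it held that of 5974 of the 19938 genes, and Tg(Dyrk1a) mouse 4 held the lowest in 18, against 24.3% of all genes. Without Tg(Dyrk1a) mouse 1 the subunit median was 0.019, with 25 of 36 higher, and the difference between the medians of subunits and assembly factors shrank from 0.022 to 0.000976. Without Tg(Dyrk1a) mouse 5 that difference was 0.007, without wild-type mouse 3 it was 0.009, and without wild-type mouse 2 it was 0.042.

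The subunit score ran against 1 of 2 measures of the whole array. The 3 arrays with the highest median over all transcript clusters, wild-type mouse 3 at 6.66, Tg(Dyrk1a) mouse 4 at 6.65 and wild-type mouse 1 at 6.63, were also the 3 with the lowest subunit scores. By the median over annotated transcript clusters this did not hold, since wild-type mouse 3 was the lowest of the 10 arrays at 7.27 and Tg(Dyrk1a) mouse 4 the second highest at 7.30. Without the 3 arrays rich in choroid plexus markers the subunit median was 0.047, with 31 of 36 higher, and the assembly factor median was 0.020, with 6 of 7 higher. Of 18 markers of meningeal fibroblasts 17 were higher in Tg(Dyrk1a), with scores from -0.10 to 0.20 against -0.19 to 0.09, and of 16 thalamic markers 15 were lower, with scores from -0.13 to -0.02 against -0.11 to 0.45. Of 16 measured choroid plexus markers 12 were higher, with scores from -0.63 to 1.04 against -0.49 to 1.01. Of 16 markers of hippocampal neurons 13 were higher, with scores from -0.05 to 0.17 against -0.08 to 0.05. At an unadjusted limma p under 0.05, 5 meningeal and 3 hippocampal neuron markers were higher, while 2 thalamic markers and 1 choroid plexus marker were lower. Of all transcript clusters 2.99% were higher and 1.94% lower at that threshold. With quantile normalization, which gives all arrays the same distribution of values, the subunit median was 0.022, with 28 of 36 higher. The assembly factor median was then 0.014, and the difference between the medians 0.008. With the choroid plexus, meningeal and thalamic scores as covariates the subunit median was 0.031, with 30 of 36 higher, and the assembly factor median -0.013. The part of these cells and tissues and of the array medians in the complex I values was not tested. In bulk tissue, fewer cells of a type and less RNA per cell cannot be told apart.

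**Figure D4:**
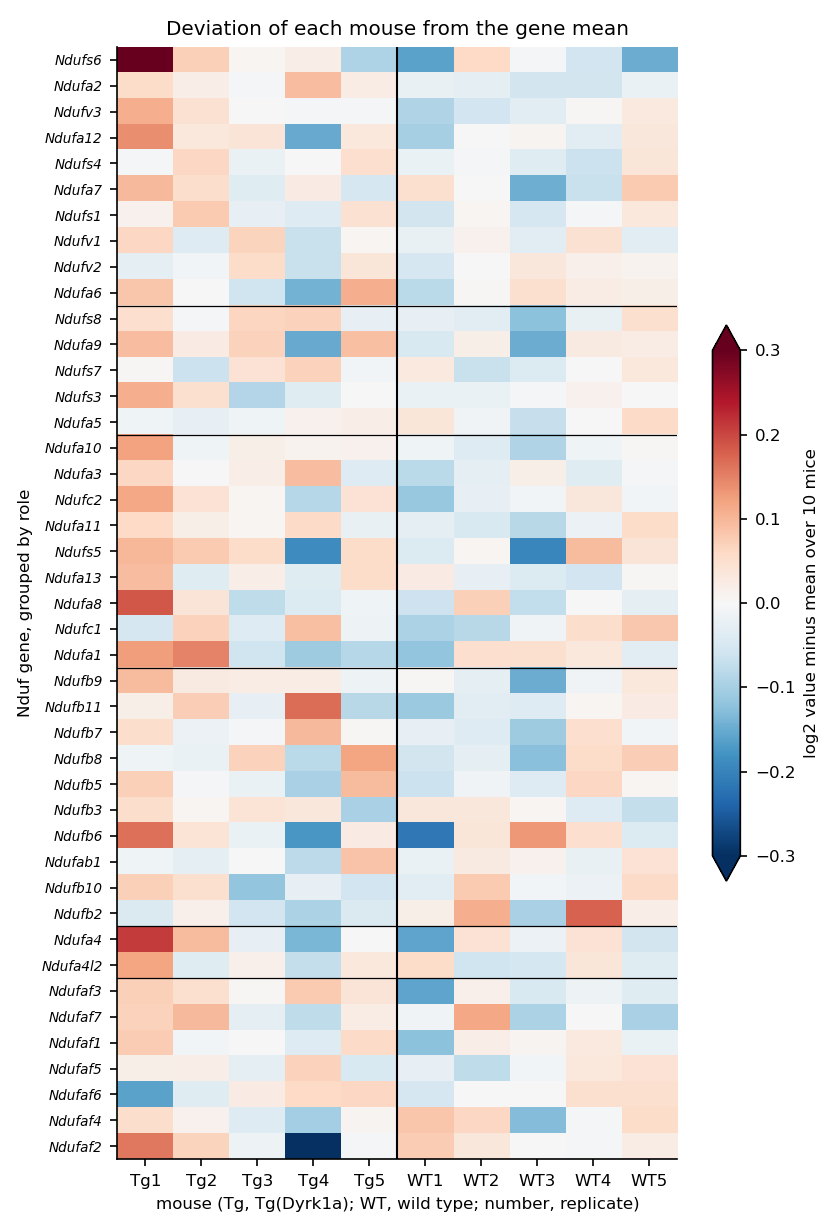
Log2 value of each Nduf gene (vertical axis, grouped by role and ordered as in the plot of fold changes) in each mouse (horizontal axis, Tg1 to Tg5 Tg(Dyrk1a), WT1 to WT5 wild type) minus the gene's mean over the 10 mice, in red where above and in blue where below, with colours saturating at 0.3. The column of Tg1 is mostly red, those of Tg4, WT1 and WT3 hold most of the dark blue cells.

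The N module had the highest single subunit. Of its 10 genes 8 were higher, with a median of 0.035. Ndufs6 (chromosome 13 from 73319876 to 73328482 in GRCm38.p6), an accessory subunit that carries a zinc ion and joins late in assembly, was at 9.10, 8.87, 8.81, 8.82 and 8.71 in Tg(Dyrk1a) mice 1 to 5 and at 8.64, 8.86, 8.80, 8.74 and 8.65 in wild-type mice 1 to 5. Only Tg(Dyrk1a) mice 1 and 2 lay above the highest wild-type mouse. Its log2 fold change was 0.12 ± 0.07 (SE), 1.09-fold with a 95% interval of 0.984 to 1.21 (limma adjusted p = 0.947; exact permutation p = 0.143). Without Tg(Dyrk1a) mouse 1 the log2 fold change was 0.06.

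Ndufa2 (chromosome 18 from 36742332 to 36744587), a small accessory subunit of the N module with a thioredoxin-like fold, had the clearest separation. It was at 9.52, 9.49, 9.46, 9.56 and 9.49 in Tg(Dyrk1a) mice 1 to 5 and at 9.45, 9.44, 9.41, 9.41 and 9.45 in wild-type mice 1 to 5. Every Tg(Dyrk1a) mouse was above every wild-type mouse, and the closest pair stood at 9.46 and 9.45. The log2 fold change was 0.07 ± 0.03 (SE), 1.05-fold with a 95% interval of 1.01 to 1.10, with an exact permutation p of 0.00794, below which a design of this size cannot go. The limma p was 0.027 before and 0.947 after adjustment. Ndufa2 also had the smallest within-group SD of all subunits, 0.03, and its log2 fold change stayed between 0.06 and 0.09 in 21 alternatives, in 13 of which its unadjusted limma p was under 0.05.

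The other 8 N module genes all had 95% intervals that include 0. Ndufv3, an accessory subunit of this module, was at 0.06 ± 0.04 (SE, log2 fold change) and 5 of 5 Tg(Dyrk1a) mice exceeded the mean of wild type. The mouse gene is on chromosome 17 and its human counterpart on chromosome 21. Ndufa12 and Ndufs4 were both at 0.04, Ndufa7 and Ndufs1 at 0.03, Ndufv1 at 0.01, and Ndufv2 and Ndufa6 at -0.004. Ndufs1, Ndufv1 and Ndufv2 bind the flavin or iron-sulfur clusters of this module, and none of the 3 differed by more than its standard error.

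In the Q module, 4 of 5 measured genes were higher, with a median of 0.018. Ndufs8, a core subunit that holds iron-sulfur clusters, was at 10.75, 10.70, 10.77, 10.77 and 10.68 in Tg(Dyrk1a) mice 1 to 5 and at 10.68, 10.67, 10.58, 10.68 and 10.75 in wild-type mice 1 to 5. Wild-type mouse 5 lay within the upper Tg(Dyrk1a) values, so the groups overlapped. The log2 fold change was 0.06 ± 0.04 (SE; limma adjusted p = 0.947; exact permutation p = 0.063). Ndufa9, an accessory subunit at the junction with the membrane arm, was at 0.05, Ndufs7 at 0.02, Ndufs3 at 0.01 and Ndufa5 at -0.006. Over the 6 measured core subunits encoded in the nucleus, which form the catalytic heart of the complex, 5 were higher, with a median of 0.015.

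In the proximal membrane arm all 9 genes had a higher mean in Tg(Dyrk1a), with a median of 0.039 and a range from 0.009 for Ndufa1 to 0.06 for Ndufa10. Ndufa10, a large accessory subunit, exceeded the mean of wild type in 5 of 5 Tg(Dyrk1a) mice (log2 fold change 0.06 ± 0.03 (SE); exact permutation p = 0.0238; limma adjusted p = 0.947). Without Tg(Dyrk1a) mouse 1 it was at 0.04. Ndufa3 and Ndufc2 were at 0.05, Ndufa13, also known as GRIM-19, Ndufa8 and Ndufs5 at 0.04, and Ndufc1 at 0.02. None of these 9 reached an unadjusted limma p under 0.05.

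Ndufa11 of the same arm stood at 0.05, but the locus of its transcript cluster is uncertain. Of 10 transcript clusters with neighbouring numbers, 7 belong to genes on chromosome 16 and 0 to genes on chromosome 17, where Ndufa11 lies. RefSeq lists a transcribed pseudogene, Ndufa11b, on chromosome 16, and whether the cluster reads it was not tested. The dimmer cluster numbered among chromosome 17 genes was at 0.01. Ndufb11 of the distal arm was alike, with 0.06 in a cluster numbered among genes of chromosome 5 and 0.04 in the dimmer one numbered among genes of the X chromosome, where the gene lies. Probes on a processed copy and on the gene itself can share signal, so both pairs of values are given. With the clusters at the genes' own chromosomes, chosen after the data were seen, the subunit median was 0.032.

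The distal membrane arm held the lowest subunits. Of its 10 measured genes 7 were higher, with a median of 0.016. Ndufb2 (chromosome 6 from 39592565 to 39599843), a small accessory subunit, was at 8.09, 8.15, 8.08, 8.04 and 8.09 in Tg(Dyrk1a) mice 1 to 5 and at 8.15, 8.25, 8.04, 8.31 and 8.16 in wild-type mice 1 to 5. All 5 Tg(Dyrk1a) mice lay below the wild-type mean, while wild-type mouse 3 lay level with the lowest Tg(Dyrk1a) mouse. Its log2 fold change was -0.09 ± 0.05 (SE), 0.940-fold with a 95% interval of 0.876 to 1.01 (limma adjusted p = 0.947; exact permutation p = 0.103). Leaving out wild-type mouse 4 gave -0.06, leaving out wild-type mouse 3 gave -0.12, and adding the marker scores to the fit gave -0.19. Its limma adjusted p ran from 0.736 to 1.00 over 21 alternatives.

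Ndufb10, which has cysteines that are oxidised in the intermembrane space, was at 8.18, 8.16, 7.99, 8.08 and 8.05 in Tg(Dyrk1a) mice 1 to 5 and at 8.08, 8.19, 8.10, 8.09 and 8.17 in wild-type mice 1 to 5. Tg(Dyrk1a) mice 3 and 5 lay below every wild-type mouse and the other 3 within their range, with a log2 fold change of -0.03 ± 0.04 (SE; exact permutation p = 0.421). Ndufab1, the mitochondrial acyl carrier protein, which also serves fatty acid and lipoic acid synthesis, was at 9.27, 9.25, 9.28, 9.20 and 9.37 in Tg(Dyrk1a) mice 1 to 5 and at 9.26, 9.31, 9.30, 9.26 and 9.33 in wild-type mice 1 to 5. Its log2 fold change was -0.02 ± 0.03 (SE; exact permutation p = 0.627), and the Tg(Dyrk1a) mice spanned the whole wild-type range.

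The remaining distal subunits were higher, with 95% intervals that include 0. Ndufb9 was at 0.06, Ndufb7 at 0.05, Ndufb8 at 0.03, Ndufb5 and Ndufb3 at 0.02 and Ndufb6 at 0.01. Ndufb6 had the largest within-group SD of any subunit, 0.13. Of the 2 subunit symbols outside these modules, Ndufa4, since assigned to complex IV, was at 0.06 ± 0.06 (SE) and its paralogue Ndufa4l2, a gene known for induction by hypoxia, at 0.02 ± 0.04 (SE). Transcript clusters that carry several symbols, Ndufb4 with Ndufb4b and Ndufs5 with its pseudogene, were at 0.02 to 0.03.

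**Figure D5:**
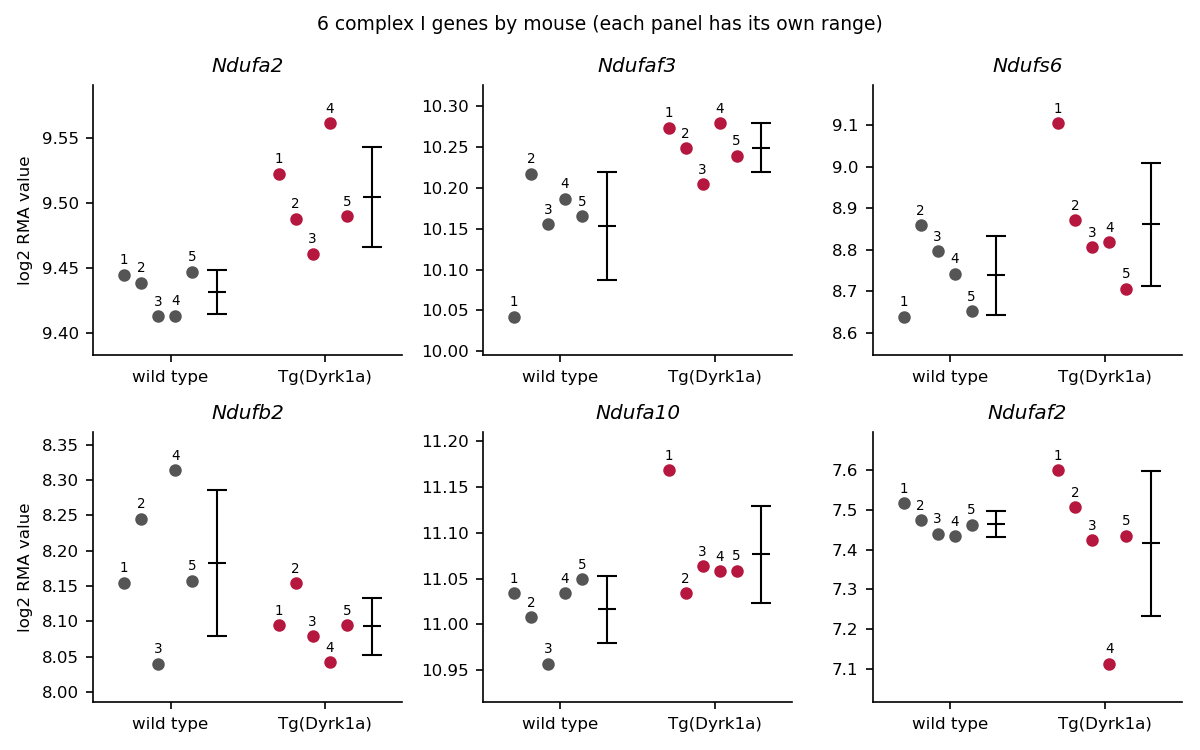
Log2 RMA values (vertical axes, each panel with its own range) of 6 complex I genes in wild-type and Tg(Dyrk1a) hippocampus, each mouse a numbered point and bars giving mean and SD (n = 5). Ndufa2 shows no overlap, 4 of 5 Tg(Dyrk1a) mice are above every wild-type mouse for Ndufaf3, mouse 1 stands high in Tg(Dyrk1a) for Ndufs6 and Ndufa10, and mouse 4 stands low for Ndufaf2.

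Among the assembly factors, Ndufaf3 (chromosome 9 from 108565587 to 108567436) had the highest value. It encodes a small matrix protein that acts early, with Ndufaf4, in building the Q module and joining it to the membrane. Ndufaf3 was at 10.27, 10.25, 10.20, 10.28 and 10.24 in Tg(Dyrk1a) mice 1 to 5 and at 10.04, 10.22, 10.16, 10.19 and 10.17 in wild-type mice 1 to 5. Wild-type mouse 2 lay above Tg(Dyrk1a) mouse 3, and wild-type mouse 1 stood low. The log2 fold change was 0.10 ± 0.04 (SE), 1.07-fold with a 95% interval of 1.01 to 1.13 (exact permutation p = 0.0159). The limma p was 0.021 before and 0.947 after adjustment, and the fold change lay between 0.07, without wild-type mouse 1, and 0.11 over 21 alternatives.

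Ndufaf4, the partner of Ndufaf3, did not share this value. It was at 8.10, 8.06, 8.01, 7.94 and 8.05 in Tg(Dyrk1a) mice 1 to 5 and at 8.13, 8.11, 7.92, 8.04 and 8.10 in wild-type mice 1 to 5, with overlapping groups and a log2 fold change of -0.03 ± 0.05 (SE; exact permutation p = 0.571). The difference between the 2 partners was not tested.

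Ndufaf2, a paralogue of the subunit Ndufa12 that binds a late intermediate, was at 7.60, 7.51, 7.42, 7.11 and 7.43 in Tg(Dyrk1a) mice 1 to 5 and at 7.52, 7.47, 7.44, 7.43 and 7.46 in wild-type mice 1 to 5. Tg(Dyrk1a) mouse 4 stood far below all others, and the other 4 surrounded the wild-type values. The log2 fold change was -0.05 ± 0.07 (SE; exact permutation p = 0.706), and it was 0.03 without that mouse. Ndufaf7, a methyltransferase, was at 7.58, 7.61, 7.48, 7.43 and 7.53 in Tg(Dyrk1a) mice 1 to 5 and at 7.50, 7.62, 7.41, 7.51 and 7.41 in wild-type mice 1 to 5. Its groups overlapped, with a log2 fold change of 0.04 ± 0.05 (SE; exact permutation p = 0.50). Ndufaf1, which acts on the membrane arm, was at 0.03, Ndufaf5, a hydroxylase of a Q module subunit, at 0.01 and Ndufaf6 at -0.02.

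The other genes that serve complex I gave mixed values. Of 12 measured assembly factors without an Ndufaf symbol, 10 were higher, with a median of 0.046, and 3 had an unadjusted limma p under 0.05, all higher, where 2.99% of all transcript clusters were. FCROS, computed from the same values, called 3 of the 12 as higher, where it called 2.72% of all transcript clusters. Foxred1, a flavoprotein needed for assembly, was at 0.15 ± 0.05 (SE, log2 fold change), Tmem70, a membrane protein that also serves ATP synthase, at 0.11 ± 0.03 (SE) and Dmac1, a factor of the distal arm, at 0.10 ± 0.04 (SE). Each had a limma adjusted p of 0.947. Tmem70 was the single one without overlap between genotypes, which 0.807% of all transcript clusters showed. Its exact permutation p was 0.00794, the smallest that this design allows. Tmem186 was the lowest at -0.04. Of 15 regulators of mitochondrial gene expression and DNA, 7 were higher, with a median of -0.011, Tfb1m, a methyltransferase of mitochondrial ribosomal RNA, highest at 0.13 ± 0.09 (SE) and Ppargc1b, a transcriptional coactivator, lowest at -0.06 ± 0.07 (SE). Of the 7 mitochondrially encoded subunits ND3 alone had a value, -0.03 ± 0.06 (SE).

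The position of the genes was not used in choosing them. In RefSeq (GRCm38.p6) the 43 genes lie on 15 chromosomes, and 0 of them on chromosome 16, where Dyrk1a lies. Promoters were given for 38 of the 43. Of these, 13 (34.2%) had the start of another gene on the opposite strand within 1000 bases upstream, in a head-to-head arrangement, where 1678 of 15614 measured genes (10.7%) did, a difference that was not tested. All 13 neighbours were measured, and 7 were higher in Tg(Dyrk1a), with a median of 0.020. The 2 pairs shown here are those of the highest subunit and the highest assembly factor, chosen after their values were seen.

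The sequences between these paired starts show how little DNA separates them, and they are printed from RefSeq (GRCm38.p6) in lower case with any CCAAT match in capitals, read 5′ to 3′ along the strand of the Nduf gene. Ndufs6 and the mitochondrial ribosomal protein gene Mrpl36 start 20 bases apart on chr13:73328483-73328502 (minus strand). Ndufaf3 and Dalrd3 start 47 bases apart on chr9:108567437-108567483 (minus strand).
Ndufs6: ctgtgcgcctgcgccggcac
Ndufaf3: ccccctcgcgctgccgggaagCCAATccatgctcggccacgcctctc
Mrpl36 stood at 0.05 ± 0.04 (SE, log2 fold change) beside 0.12 for Ndufs6, and Dalrd3 at 0.09 ± 0.05 (SE) beside 0.10 for Ndufaf3, both with limma adjusted p values of 0.947 or more.

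Short motifs of promoters of mitochondrial genes were searched on both strands of the 250 bases before each start. The shares for comparison are over all 27025 genes with a promoter given, measured here or not, unlike the measured genes used for the head-to-head share. The NRF1 motif, GCGCA followed by its reverse complement, was in 2 of 38 Nduf promoters, those of Ndufa11 and Ndufaf4 (5.26%, against 0.877% of 27025 genes). None of these differences was tested. The ETS core CGGAAG was in 12 (31.6% against 15.3%), the YY1 core ATGGCGG in 4 (10.5% against 2.58%), the GC box GGGCGG in 17 (44.7% against 35.4%) and CCAAT in 12 (31.6% against 37.5%). A match is a run of letters and not a bound site. The 150 bases before the start of Ndufb2, the lowest subunit, and of Ndufaf4, which holds the NRF1 motif, are shown as a contrast, with the motif matches in capitals. They lie at chr6:39592415-39592564 (plus strand) and chr4:24897933-24898082 (plus strand).
Ndufb2: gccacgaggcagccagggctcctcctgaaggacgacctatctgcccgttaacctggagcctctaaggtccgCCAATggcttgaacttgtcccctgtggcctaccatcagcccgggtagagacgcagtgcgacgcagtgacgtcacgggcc
Ndufaf4: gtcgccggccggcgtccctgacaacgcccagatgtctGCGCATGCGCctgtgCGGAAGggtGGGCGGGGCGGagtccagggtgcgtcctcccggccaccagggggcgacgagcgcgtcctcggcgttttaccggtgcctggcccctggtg
In Ndufb2 the capitals are a CCAAT match, and in Ndufaf4 they are the NRF1 motif, the ETS core and 2 GC boxes that share a base. The log2 fold changes of these 2 genes were -0.09 and -0.03, both with intervals that include 0.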

How the data were processed

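The members and lists were chosen with earlier results of these data known. RNA from 10 hippocampi was hybridised to Affymetrix Mouse Gene 1.0 ST arrays, and the authors deposited log2 values after RMA, which corrects background, equalises probe distributions and summarises probes. Per the submitters' notes the tools were RMA and limma and the build mm10; which arrays were normalized together is not given in the sources used here. The table holds 35556 values per array, of which 23410 transcript clusters have a gene symbol. Of these, 21789 have a single symbol, and they name the 19938 genes used here. The 1621 with several symbols were tested but not counted as genes. All 43 Nduf symbols matched RefSeq.

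The genotypes were compared with limma 3.58.1 (lmFit, eBayes; R 4.3.3) with Benjamini-Hochberg adjustment over the 23410 transcript clusters, with no covariate, on all 10 arrays, whose number limits the precision. SE is the standard error from limma. Single genes also had a two-sided exact permutation test over 252 assignments (SciPy 1.17.1), whose smallest p is 0.00794. FCROS was rewritten from its description, with 25% of ranks trimmed at each end and f-values outside 0.025 to 0.975 counted. It scales each mean rank by the mean and SD of all transcript clusters. The share it calls is therefore largely set by its thresholds, and it gives no error rate over mice. Gene lists were described by counts and medians, with no test. Every Nduf gene could be named; values by mouse are given for those at an unadjusted p under 0.05 or without overlap, for the 3 highest and 3 lowest subunits and for the 2 highest and 2 lowest assembly factors. Scripts were tested on simulated data. No arrays were duplicates, the smallest median difference between 2 arrays being 0.0497. The replicate numbers did not pair the mice.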

Additional observations from a re-analysis of the deposited data

Results flagged for a closer look

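In 3 of 90 groups of 5 values (43 Nduf genes and 2 list scores in 2 genotypes), 1 mouse stood apart from the rest by Dixon's criterion, where chance alone gives about 1 in 20, or 4.5. Ndufa10 was highest in Tg(Dyrk1a) mouse 1, at 11.168 against 11.063 in the next mouse. Ndufa9 was lowest in Tg(Dyrk1a) mouse 4, at 10.386 against 10.562, and Ndufs5, a proximal arm subunit, was lowest in the same mouse, at 8.4417 against 8.6846. These are the mice with the highest and the lowest subunit score among the Tg(Dyrk1a) mice.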

How the results depend on the processing

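No Nduf gene passed a limma adjusted p of 0.05 under any of the 21 alternatives (quantile normalization, median centring, a filter on the lowest 30% of transcript clusters, all rows tested, a variance trend, array weights, the replicate block, averaging the transcript clusters of each gene, each array left out, and, added after the data were seen, no choroid-rich arrays, marker covariates and own-chromosome clusters). The lowest adjusted p was 0.715. At an unadjusted p under 0.05, 2 genes were higher; quantile normalization and the replicate block left 1 (Ndufaf3), array weights 1 (Ndufa2) and covariates 0, while 1 was lower (Ndufb2) with quantile normalization, array weights and covariates. Without the choroid-rich arrays neither Ndufa2 nor Ndufaf3 kept an unadjusted limma p under 0.05, and the 2 genes counted there were Ndufa9 and Ndufa12. Leaving out 1 array gave 1 to 3 higher and 0 to 1 lower. The count over all 23410 transcript clusters, in either direction, moved as well. It was 1154 in the main fit, 1057 with quantile normalization, 1193 with the replicate block, 1526 with array weights and 816 with covariates. Without the choroid-rich arrays it was 1272, and with 1 array left out it ran from 874 to 1622. The replicate block moved no median, and it is given only as a check, since the numbers did not pair the mice (same-number correlations of residuals from -0.29 to 0.28). Subunit medians ran from 0.0194 to 0.0470 with 25 to 33 higher when 1 array was left out, assembly factor medians from -0.0041 to 0.0258 with 3 to 5 higher, and the difference from 0.000976, without Tg(Dyrk1a) mouse 1, to 0.0417. With covariates that difference was 0.0442, the assembly factor median being -0.0134, and with array weights that median was -0.0014. The cause was not tested.

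Of 903 log2 fold changes of Nduf genes under the alternatives 53 changed sign, in 21 genes, all with an unadjusted p over 0.05 and small values. Quantile normalization gave -0.0016 for Ndufa1 and -0.0019 for Ndufb6. Array weights gave -0.0326 for Ndufa1, 0.0055 for Ndufa6, -0.00058 for Ndufa8, 0.0057 for Ndufab1, -0.0014 for Ndufaf5, -0.00022 for Ndufb3, -0.0075 for Ndufs3 and 0.0131 for Ndufv2. Without the choroid-rich arrays the values were -0.0092 for Ndufa1, 0.0092 for Ndufa5, 0.0454 for Ndufa6, 0.0246 for Ndufab1, 0.0200 for Ndufaf2, 0.0049 for Ndufaf4, -0.0097 for Ndufb3, -0.00049 for Ndufc1 and 0.0223 for Ndufv2. With covariates they were 0.0297 for Ndufa6, 0.0084 for Ndufab1, -0.0134 for Ndufaf7, 0.0092 for Ndufb10, -0.0075 for Ndufb8, -0.0372 for Ndufs5 and -0.0061 for Ndufv1. With 1 array left out at a time the ranges that crossed 0 were -0.0274 to 0.0366 for Ndufa1, -0.0039 to 0.0437 for Ndufa4l2, -0.0241 to 0.0077 for Ndufa5, -0.0322 to 0.0307 for Ndufa6, -0.0047 to 0.0614 for Ndufa8, -0.0388 to 0.0025 for Ndufab1, -0.0959 to 0.0258 for Ndufaf2, -0.0041 to 0.0262 for Ndufaf5, -0.0374 to 0.0184 for Ndufaf6, -0.00084 to 0.0414 for Ndufb3, -0.0039 to 0.0440 for Ndufb5, -0.0373 to 0.0595 for Ndufb6, -0.0136 to 0.0360 for Ndufs3, -0.0049 to 0.0912 for Ndufs5, -0.0033 to 0.0298 for Ndufv1 and -0.0184 to 0.0125 for Ndufv2. The sign was kept in 22 genes, 19 of them subunits that were higher. RMA compression and 5 mice per genotype limit what could be seen.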
